A study of Mus musculus with 16 samples.

Results

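Transcript levels of 10 receptors and targets of the Wnt and β-catenin pathway were examined in cultured brain endothelial cells that carry human *APOE3* or *APOE4*. The members were the rows of the count table whose identifiers map in GENCODE vM21 to Fzd4, Lrp6, Tspan12, Adgra2, Reck, Lef1, Axin2, Apcdd1, Nkd1 and Znrf3, which is 10 of 39057 rows. All 10 had enough counts to be tested. With *APOE4*, Reck was higher by 20.9%, Nkd1 was lower by 13.6%, and the other 8 members did not pass the test.

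The cells were primary cultures from the cerebral cortex of *APOE3* and *APOE4* targeted replacement mice, in which the mouse gene is replaced by the human one, at 21 to 28 days of age by the labels and 28 days by the published methods. There were 8 cultures of each genotype, 4 from males and 4 from females, each grown from 1 brain, and all were treated with puromycin at 8 μg/ml to select endothelial cells. The RNA came from cells outside the brain, and no uncultured sample was compared. The replacement gene is carried in every cell of the animal, so genotype before isolation and genotype in culture cannot be told apart.

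In the brain, Wnt7a and Wnt7b from neural cells reach the receptor Fzd4 on endothelial cells with the help of Reck, a membrane-anchored protein that binds these ligands, and Adgra2, also called Gpr124, an adhesion receptor that acts with Reck. Norrin, the product of Ndp, also uses Fzd4, with the tetraspanin Tspan12 as its helper. Lrp5 and Lrp6 are the coreceptors, and their activation keeps β-catenin from being degraded so that it can act with the nuclear factors Lef1 and Tcf7, Tcf7l1 and Tcf7l2. Axin2, Nkd1, Apcdd1 and Znrf3 are targets of the pathway that also restrain it, and the signal keeps endothelial cells in the state of the blood-brain barrier.

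Human *APOE* had 7672 to 22318 counts in each of the 16 libraries and mouse Apoe 128 to 290. Libraries held 12717847 to 18624417 counts, with a median of 15447555 for *APOE3*, and 0 pairs of libraries were identical. The summed level of 12 endothelial markers was 18165 to 19400 CPM (counts scaled to library size and composition) in *APOE3* cultures and 18009 to 19922 in *APOE4* cultures, with 0 of the 12 at 3 counts or fewer in every library. For pericytes and smooth muscle, 10 markers summed to 188 to 354 CPM with *APOE3* and 222 to 339 with *APOE4*, and 6 fibroblast markers to 13.3 to 65.3 and 10.4 to 85.2. The 7 astrocyte markers summed to 31.9 to 41.7 and 33.4 to 43.4 CPM, of which Aqp4, Slc1a2 and S100b had at most 3 counts in any library, and 6 neuronal markers summed to 8.58 to 12.4 and 10.7 to 14.8, of which Snap25 had at most 3. The 8 microglial markers summed to 6.05 to 7.60 and 5.32 to 7.94 CPM (Cx3cr1, P2ry12 and Itgam at most 3 counts) and 6 oligodendrocyte markers to 0.670 to 1.97 and 0.504 to 1.65 (Mog, Olig1, Olig2 and Sox10 at most 3 counts). Scores averaged the markers with enough counts, namely 12 endothelial, 6 pericyte and muscle, 4 fibroblast, 2 astrocyte, 2 neuronal, 1 microglial and 1 oligodendrocyte. By exact permutation test before adjustment, p was 0.0205 for neuronal, 0.0356 for astrocyte and 0.0472 for oligodendrocyte markers. With *APOE4* the neuronal and astrocyte scores were higher (2.12 against 1.72 and 3.27 against 2.87) and the oligodendrocyte score lower (-0.188 against 0.307). None of these cell type lists passed after adjustment over 8 lists (exact permutation tests of the mean log2 CPM, two-sided, adjusted p from 0.0821 to 0.729). Cell cycle genes did. Values with their score as a covariate are given below for the called members, pathway genes and barrier genes.

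Shown are the promoters of Reck and Nkd1, the members that changed, and of Axin2, the target most often read for this pathway. They let matches to the core sequence of the pathway's nuclear factors be seen, and no binding was measured. They are the 250 bases before the start of transcription from RefSeq (GRCm38.p6, plus strand for all 3), and capitals mark the core that Lef1 and the Tcf proteins bind, CTTTG followed by 2 letters that are each A or T, searched on both strands.
Reck promoter (chr4:43875280-43875529): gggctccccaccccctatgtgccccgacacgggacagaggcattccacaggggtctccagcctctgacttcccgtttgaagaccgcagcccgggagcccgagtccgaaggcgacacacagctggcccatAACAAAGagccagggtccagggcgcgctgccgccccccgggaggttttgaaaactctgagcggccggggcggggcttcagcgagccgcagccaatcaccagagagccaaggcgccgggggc
Nkd1 promoter (chr8:88527383-88527632): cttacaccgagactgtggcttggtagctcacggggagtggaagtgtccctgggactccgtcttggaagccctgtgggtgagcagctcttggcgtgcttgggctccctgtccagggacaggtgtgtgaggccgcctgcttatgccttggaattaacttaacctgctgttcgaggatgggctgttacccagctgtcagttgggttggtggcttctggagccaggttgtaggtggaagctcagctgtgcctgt
Axin2 promoter (chr11:108920099-108920348): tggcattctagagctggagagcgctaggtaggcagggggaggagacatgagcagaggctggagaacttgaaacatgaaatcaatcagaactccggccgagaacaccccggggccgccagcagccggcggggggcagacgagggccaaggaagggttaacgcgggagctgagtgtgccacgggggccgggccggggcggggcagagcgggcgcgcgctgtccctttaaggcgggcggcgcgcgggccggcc
The Reck window held 1 match, on the reverse strand and 121 bases before the start, and the Nkd1 and Axin2 windows held no such run of letters. Among 32851 promoter windows of the same length, 14.8% held a match, so a match in 2 of the 9 windows found for 6 of the members is described without a test. The other window with a match was 1 of 4 for Lef1, and those of Fzd4 and Tspan12 had none. The RefSeq start for Nkd1 lies inside the gene as GENCODE vM21 draws it.

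Among the receptors, Reck (ENSMUSG00000028476.13, chromosome 4 from 43875530 to 43944806, mm10) differed between genotypes. The *APOE3* cultures had a lowest, median and highest level of 33.1, 36.7 and 41.7 CPM, and the *APOE4* cultures of 36.6, 45.1 and 49.9. The ranges overlapped, and 7 of 8 *APOE4* cultures were above the *APOE3* median. The mean rose from 37.0 ± 2.81 to 44.7 ± 4.74 CPM (SD, n = 8 each; log2 fold change 0.27, SE 0.0626, edgeR quasi-likelihood test with Benjamini-Hochberg adjustment over 12481 genes, adjusted p = 0.0107). With the mean log2 CPM of 26 cell cycle genes as a covariate, the log2 fold change was 0.20 (adjusted p = 0.662). These p-values measure the spread between cultures of different animals.

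Adgra2, the partner of Reck (ENSMUSG00000031486.15, chromosome 8 from 27085583 to 27123436), was 833, 890 and 969 CPM at its lowest, median and highest with *APOE3* and 848, 966 and 999 with *APOE4*. Of 8 *APOE4* cultures, 7 were above the *APOE3* median, and the ranges overlapped over most of their width. The log2 fold change was 0.10 (SE 0.0393), which did not pass the edgeR test (adjusted p = 0.108). It passed without *APOE4* replicate 43 (0.12, adjusted p = 0.0315), without *APOE3* replicate 31 (0.11, adjusted p = 0.0490) and after correction for GC content and gene length (0.15, adjusted p = 0.0376). Adgra2 shares 73 exonic bases with Brf2 on the opposite strand, and Brf2 had 2297 counts over all 16 libraries, against 12553 or more for Adgra2 in each library.

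Fzd4 (chromosome 7 from 89404355 to 89413134) ranged from 284 to 318 CPM with *APOE3* and from 296 to 322 with *APOE4*, with medians of 310 and 309. Its log2 fold change was 0.02 (SE 0.0296, edgeR adjusted p = 0.763), and its spread among cultures of a genotype was at the 1.73 percentile of all genes tested. Lrp6 (chromosome 6 from 134446476 to 134566965) had medians of 118 and 115 CPM and ranges of 100.2 to 121 and 105 to 121 (log2 fold change -0.03, SE 0.0408, edgeR adjusted p = 0.706). Tspan12 (chromosome 6 from 21771395 to 21852515) had medians of 34.0 and 35.0 CPM and ranges of 32.3 to 37.2 and 27.6 to 35.9 (log2 fold change -0.03, SE 0.0534, edgeR adjusted p = 0.749). The genotypes overlapped for all 3 receptors.

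Among the targets, Nkd1 (ENSMUSG00000031661.12, chromosome 8 from 88521354 to 88594884), which binds Dishevelled and restrains the signal, differed between genotypes. Its lowest, median and highest levels were 35.3, 42.5 and 47.2 CPM with *APOE3* and 33.0, 36.5 and 39.5 with *APOE4*. All 8 *APOE4* cultures were below the *APOE3* median, although *APOE3* replicates 26 (35.3 CPM) and 31 (38.8 CPM) were within the *APOE4* range. The mean fell from 41.9 ± 3.70 to 36.2 ± 1.86 CPM (SD, n = 8 each; log2 fold change -0.21, SE 0.0521, edgeR adjusted p = 0.0145). The cell cycle covariate brought it to -0.12 (adjusted p = 0.756).

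Axin2 (ENSMUSG00000000142.15, chromosome 11 from 108920349 to 108950783), a scaffold of the complex that degrades β-catenin, had few reads, 50 to 112 counts per library. It was 4.42, 5.16 and 6.99 CPM at its lowest, median and highest with *APOE3* and 2.72, 4.33 and 5.62 with *APOE4*. Of 8 *APOE4* cultures, 7 were below the *APOE3* median. The log2 fold change was -0.31 (SE 0.128), larger in size than that of Nkd1, and did not pass the edgeR test (unadjusted p = 0.0274, adjusted p = 0.120), with a spread among cultures at the 79.1 percentile of all genes tested.

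The other targets did not pass the test. Lef1 (chromosome 3 from 131110471 to 131224356), both a target and a nuclear factor of the pathway, had medians of 78.9 and 77.3 CPM and ranges of 62.9 to 84.1 and 63.7 to 85.5 (log2 fold change -0.04, SE 0.0659, edgeR adjusted p = 0.755). Apcdd1 (chromosome 18), a membrane inhibitor of Wnt signaling, had medians of 129.8 and 138 CPM and ranges of 123 to 151 and 121 to 159.9 (log2 fold change 0.07, SE 0.0591, edgeR adjusted p = 0.498). Znrf3 (chromosome 11 from 5276324 to 5444847), a ubiquitin ligase that removes Frizzled receptors from the surface, had medians of 16.8 and 16.2 CPM and ranges of 15.5 to 18.8 and 12.8 to 17.6 (log2 fold change -0.09, SE 0.0637, edgeR adjusted p = 0.363). Antisense genes annotated over Lef1, Axin2 and Tspan12 share 1208, 209 and 98 exonic bases with them. The count table has no rows for these antisense genes, so their counts could not be read. The strand setting of the counting is not given in the sources used here.

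**Figure D1:**
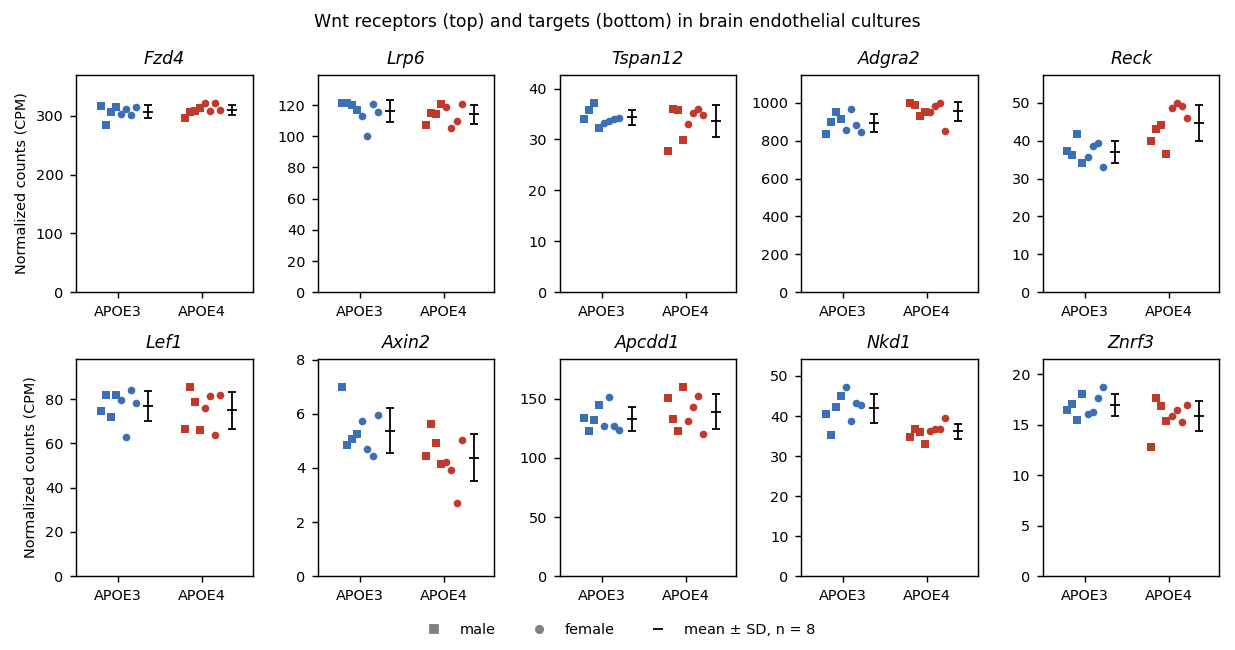
CPM of the 10 members in each culture (points; squares male, circles female) by genotype, with mean ± SD of 8 cultures beside them; axes start at 0. Reck sits higher and Nkd1 lower in *APOE4* cultures, with overlapping ranges in all 10 panels.

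In all, 2 of 10 members passed an adjusted p of 0.05, 1 higher and 1 lower, where 12.8% of all tested genes did (6.71% higher and 6.09% lower). At an unadjusted p of 0.05, 4 members passed, namely Reck, Nkd1, Adgra2 and Axin2, where 29.0% of tested genes did. The share of members called was near that of all genes, so the count says nothing particular about the members. None of the 10 had separate ranges in the 2 genotypes, and 0.625% of tested genes did. The median log2 fold change was -0.03 over the members and -0.00022 over all genes.

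Cell cycle genes moved with genotype. Their summed level was 1100 to 2288 CPM with *APOE3* and 1888 to 3254 with *APOE4*. In the edgeR test 25 of 26 passed as higher, where 6.71% of all tested genes did, and all 26 had log2 fold changes above 0. The mean log2 CPM was 5.53 ± 0.370 and 6.17 ± 0.281 (SD, n = 8 each; exact permutation test, adjusted p = 0.00995 over 8 lists). The list was chosen with earlier results of these data known, so this p is no independent evidence. With the mean log2 CPM of this list as a covariate, 0 of 12481 genes passed in edgeR (894 at an unadjusted p of 0.05), and the log2 fold change of Axin2 was -0.025 (adjusted p = 0.985). The SE grew from 0.128 to 0.165 for Axin2 and from 0.0521 to 0.0682 for Nkd1. Because the score itself differed with genotype, this fit has less power and cannot tell the 2 apart. The paper found no genotype difference in cell density or BrdU-positive nuclei at confluence. The cause was not tested. In cultures, fewer cells of a type and less RNA per cell cannot be told apart.

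Compared per kilobase of exon, the members spanned a wide range of levels. Adgra2 was at 160.0 CPM per kilobase (range over 16 libraries 144 to 173) and Fzd4 at 45.9 (42.3 to 47.9), both above every other member in 16 of 16 libraries. Then came Apcdd1 at 10.6, Tspan12 at 10.2, Lef1 at 8.64, Nkd1 at 8.57, Reck at 8.54 and Lrp6 at 8.42, a run of neighbours whose ranges overlapped; in that run the order between neighbours held in 16 of 16 libraries for Tspan12 above Lef1 and in 8 of 16 for the other pairs. Znrf3 at 2.08 and Axin2 at 0.886 were below in every library. Adgra2 stood at the 98.4 percentile of the tested genes and Axin2 at the 13.1 percentile.

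Fzd4 made up 41.9% of the summed level of the 10 Frizzled genes per kilobase (39.6% to 44.6% over libraries), Fzd6 37.7% and Fzd1 13.6%. With *APOE3* the share of Fzd4 was 41.6% ± 1.12, and with *APOE4* it was 42.1% ± 1.67 (SD, n = 8 each). Lrp5 was at 38.7 CPM per kilobase, against 8.42 for Lrp6.

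The ligands that Reck, Adgra2 and Fzd4 receive in the brain were near the floor. Wnt7a had 0 counts in 15 of 16 libraries and 1 in the other. Wnt7b had 0 to 9 counts and Ndp 0 to 8, so neither was tested. Of 24 ligands and R-spondins, 11 had at most 3 counts in any library and 5 were tested. Of these, Wnt5b, a ligand that mostly acts outside β-catenin, rose from 3.07 ± 0.864 to 4.91 ± 1.17 CPM (SD, n = 8 each; log2 fold change 0.68, SE 0.173, edgeR adjusted p = 0.0160), with all 8 *APOE4* cultures above the *APOE3* median. With the cell cycle covariate, its log2 fold change was 0.39 (adjusted p = 0.756). Wnt11 had a log2 fold change of 0.82 (SE 0.283, edgeR adjusted p = 0.0615), from 0.630 ± 0.392 to 1.10 ± 0.307 CPM (SD, n = 8 each).

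In the relay from receptor to nucleus, 2 of 3 Dishevelled genes were lower with *APOE4*, where 6.09% of all tested genes were. Their products carry the signal from Frizzled. The third, Dvl3, did not pass (log2 fold change -0.11, SE 0.0571, edgeR adjusted p = 0.196). Dvl2 was 14.8, 15.9 and 19.5 CPM at its lowest, median and highest with *APOE3* and 12.4, 13.8 and 14.7 with *APOE4*, so the genotypes did not overlap (log2 fold change -0.28, SE 0.0635, edgeR adjusted p = 0.0104). Dvl1 was 123, 141 and 147 CPM with *APOE3* and 113, 121 and 137 with *APOE4* (log2 fold change -0.17, SE 0.0412, edgeR adjusted p = 0.0122). Lrp4, a receptor listed here with the surface inhibitors, fell from 19.5 ± 2.24 to 16.3 ± 1.64 CPM (SD, n = 8 each; log2 fold change -0.25, SE 0.0762, edgeR adjusted p = 0.0345). With the cell cycle covariate, none of these 3 passed, at log2 fold changes of -0.25 for Dvl2 (adjusted p = 0.628), -0.11 for Dvl1 (adjusted p = 0.6995) and -0.13 for Lrp4 (adjusted p = 0.813). After correction for GC content and gene length, Dvl1 and Lrp4 did not pass (log2 fold changes of -0.13 and -0.22, both at adjusted p = 0.0530), and Lrp4 passed in 10 of 16 fits that left out 1 library. β-catenin itself, Ctnnb1, was 947 ± 19.1 and 989 ± 19.6 CPM (SD, n = 8 each; log2 fold change 0.06, SE 0.0251, edgeR adjusted p = 0.107).

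Across 98 other genes of the pathway, 58 were tested. Of these 1 rose (Wnt5b), 3 fell (Dvl1, Dvl2 and Lrp4) and 54 did not pass, so 4 of 58 passed where 12.8% of all tested genes did. The count depended on the setting, with 2 (Dvl2 and Wnt5b) after correction for GC content and gene length, 7 with DESeq2, 8 without *APOE3* replicate 31 and 0 with the cell cycle covariate. Their log2 fold changes were below 0 for 39 and above 0 for 19, with a median of -0.035, where 6249 of 12481 genes were below 0. Of 14 tested nuclear factors, Lef1 included, 0 passed in edgeR and 13 had values below 0. At an unadjusted p of 0.05 in edgeR 4 passed, where 29.0% of all tested genes did. This list also holds genes of corepressors and inhibitors (Tle1 to Tle4, Ctbp1, Ctbp2 and Chd8), so its direction is not that of activators alone. Tcf7 was lower than the *APOE3* median in all 8 *APOE4* cultures, with a log2 fold change of -0.10 that did not pass (SE 0.0443, edgeR adjusted p = 0.132). Tcf7l1 and Tcf7l2 were at -0.05 (SE 0.0453) and -0.06 (SE 0.0607), and the receptors Fzd6 and Lrp5 at 0.0086 (SE 0.0299) and -0.06 (SE 0.0328).

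**Figure D2:**
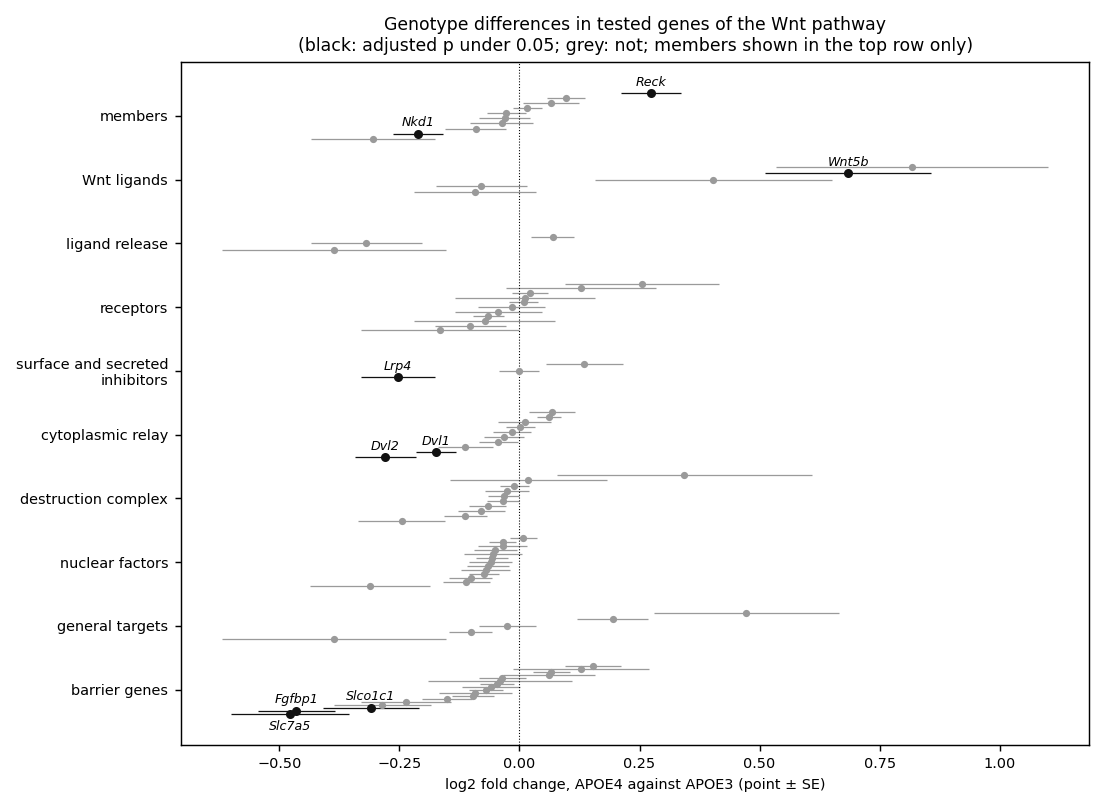
Log2 fold change (*APOE4* against *APOE3*, point ± SE from edgeR) of each tested gene by its place in the pathway; black points passed an adjusted p of 0.05, and Tcf7 and Notum stand in 2 rows. Reck and Nkd1 are the members in black, with Wnt5b to the right and Dvl1, Dvl2 and Lrp4 to the left of 0.

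Genes tied to the barrier state were also read, namely 16 genes of the barrier and Plvap, a gene of leaky vessels that the pathway is known to keep low. Of the 16, 3 passed as lower and 0 as higher, where 6.09% of all tested genes passed as lower. Of the same 16, 13 had values below 0. Plvap was set apart after its values were seen, and with it 13 of 17 genes were below 0 and 4 above. The list was chosen with earlier results of these data known, so these counts are a description. Fgfbp1, which binds fibroblast growth factors, fell from 85.3 ± 12.4 to 61.9 ± 6.55 CPM without overlap (SD, n = 8 each; log2 fold change -0.46, SE 0.0806, edgeR adjusted p = 0.00542). The amino acid transporter Slc7a5 fell from 847 ± 179 to 608 ± 123 CPM (SD, n = 8 each; log2 fold change -0.48, SE 0.122, edgeR adjusted p = 0.0167), and the thyroid hormone transporter Slco1c1 from 90.5 ± 13.2 to 73.0 ± 12.8 CPM (SD, n = 8 each; log2 fold change -0.31, edgeR adjusted p = 0.0472). With the cell cycle covariate, the log2 fold changes were -0.36 for Fgfbp1 (adjusted p = 0.552), -0.022 for Slc7a5 (adjusted p = 0.976) and 0.096 for Slco1c1 (adjusted p = 0.792). Slco1c1 passed in 6 of 16 fits that left out 1 library, and not with sex as a covariate or in limma's voom.

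The best known barrier genes did not pass. The glucose transporter Slc2a1 was 1365 ± 61.8 and 1429 ± 84.0 CPM (SD, n = 8 each; log2 fold change 0.07, edgeR adjusted p = 0.267), and the tight junction gene Cldn5 1342 ± 56.4 and 1279 ± 60.6 CPM (SD, n = 8 each; log2 fold change -0.07, edgeR adjusted p = 0.187). The endothelial transcription factors Sox17 and Foxq1 had log2 fold changes of -0.15 (SE 0.0518, edgeR adjusted p = 0.0589) and -0.24 (SE 0.0937, edgeR adjusted p = 0.0987). Mfsd2a, a lipid transporter that restrains transcytosis, was low at 36 to 82 counts per library, and Plvap was present at 713 to 1592 counts. Their log2 fold changes were -0.04 (SE 0.150, edgeR adjusted p = 0.891) and 0.13 (SE 0.142, edgeR adjusted p = 0.592).

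The members were then read within each sex, in 1 edgeR fit of 4 groups of 4. Reck in females was 33.1 to 39.3 CPM with *APOE3* and 46.1 to 49.9 with *APOE4*, with no overlap, and in males 34.2 to 41.7 and 36.6 to 44.1. The 2 genotypes did not overlap for 9.34% of all tested genes in females and 7.98% in males. The log2 fold change was 0.40 in females (SE 0.0737, edgeR adjusted p = 0.0554) and 0.13 in males (SE 0.0742, edgeR adjusted p = 0.428). In females the call was made by the DESeq2 Wald test (adjusted p = 0.000773), limma's voom (adjusted p = 0.0217) and edgeR without a filter on low counts (adjusted p = 0.00692). The difference between the sexes was 0.27 on the log2 scale (SE 0.105, edgeR unadjusted p = 0.0186, adjusted p = 1.00), so it did not pass.

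Nkd1 had log2 fold changes of -0.22 in males (SE 0.0734) and -0.21 in females (SE 0.0728), with an interaction p of 0.938 before adjustment in edgeR. Axin2 was at -0.22 in males (SE 0.179) and -0.40 in females (SE 0.182). In edgeR 0 members passed in males (1 at an unadjusted p of 0.05, Nkd1), 0 in females (3, namely Reck, Nkd1 and Axin2) and 0 for the difference (1, Reck), where 0.0% of all tested genes passed in each of the 3 contrasts. At an unadjusted p of 0.05 the shares of all genes were 14.2% in males, 19.5% in females and 2.76% for the difference. DESeq2 called 34 genes in males, 418 in females and 0 for the difference, and voom 0, 793 and 0.

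**Figure D3:**
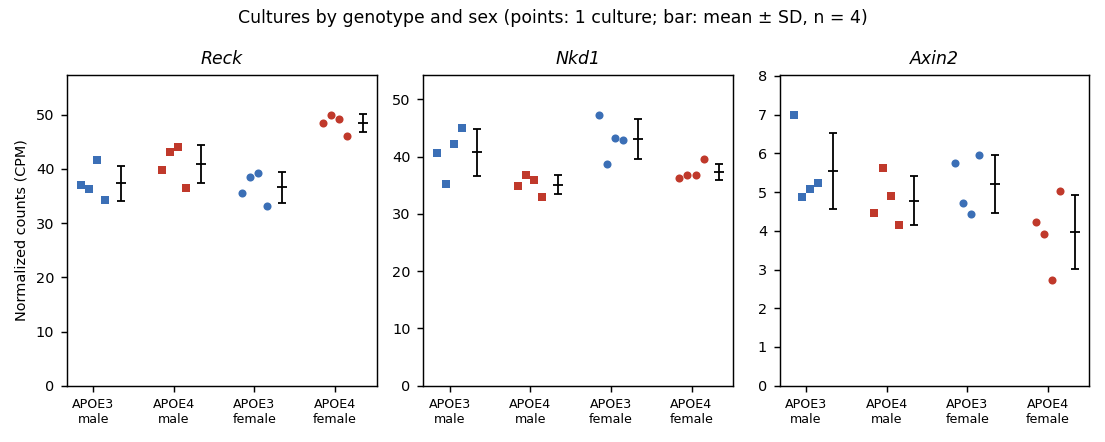
CPM of Reck, Nkd1 and Axin2 in each culture (points) by genotype and sex, with mean ± SD of 4 cultures; axes start at 0. Reck is 46.1 to 49.9 in *APOE4* females and 33.1 to 39.3 in *APOE3* females, and Nkd1 in males is 33.0 to 36.7 with *APOE4* and 35.3 to 44.9 with *APOE3*.

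Whether the other members followed Axin2 from culture to culture was asked within each genotype, over 8 cultures of log2 CPM. Lef1 had the smallest p, with *APOE4* (Pearson r = 0.704, p = 0.0321, adjusted p = 0.462; Spearman rho = 0.738, p = 0.0458, adjusted p = 0.299; two-sided exact permutation tests), but with *APOE3* r was 0.0116 (exact p = 0.976). Without the 2 cultures farthest from the median of Axin2, r with *APOE4* was 0.285. Adgra2 had r = -0.703 with *APOE3* (exact p = 0.0513, adjusted p = 0.462; rho = -0.690, exact p = 0.0694, adjusted p = 0.299) and -0.421 with *APOE4* (exact p = 0.264), and r was -0.879 and -0.732 without such cultures. Apcdd1, a target like Axin2, had r of -0.146 with *APOE3* and -0.607 with *APOE4* (exact p = 0.732 and 0.0959). Without such cultures its r was -0.514 and -0.719. Reck was also below 0 in both genotypes (-0.428 and -0.349). Of 18 relations, 0 passed after adjustment, and Nkd1 had r of 0.214 and 0.132 (exact p = 0.609 and 0.725).

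**Figure D4:**
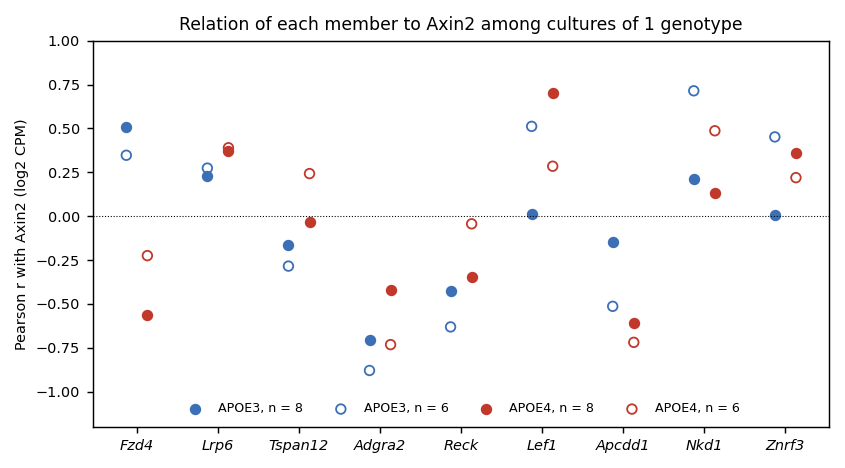
Pearson r of each of the other 9 members with Axin2 (log2 CPM) among cultures of *APOE3* (blue) and *APOE4* (red); filled points use 8 cultures and open points 6, without the 2 farthest from the median of Axin2. With 8 cultures Adgra2, Apcdd1, Reck and Tspan12 are below 0 in both genotypes, and Lef1 with *APOE4* drops from 0.704 to 0.285 with 6.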

How the data were processed

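RNA from 16 cultures was sequenced by the submitters with 100 ng of input, 17 cycles of PCR and reads of 50 nucleotides. The values the authors deposited are raw counts per gene, and the submitters' processing notes name STAR, featureCounts, mm10 and hg38 without versions. Of 39056 mouse identifiers, 38872 mapped to GENCODE vM21. All columns mapped to a sample.

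Counts were tested in R 4.3.3 with edgeR 4.0.16 (filterByExpr by genotype, TMM, genotype as the term, quasi-likelihood F test, Benjamini-Hochberg over 12481 genes, threshold 0.05). The SE was computed as the log2 fold change over the square root of F, and a prior count of 2 was added for log2 CPM. Alternatives used DESeq2 1.42.0 and limma 3.58.1, with the others given in the closing section. Tables and figures used Python 3.11.15, scipy 1.17.1 and matplotlib 3.10.9. The fits were tested on simulated data. Reads carry no molecular identifiers, so copies made by PCR could not be told from separate molecules. A count at or under 3 was the floor.

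Genes named are the 10 members, pathway genes past the threshold, a fixed set of ligands, receptors, nuclear factors and barrier genes, and the 5 genes most like Axin2. Log2 fold changes of Wnt11 and Dvl3, which did not pass, are also given outside this rule. Plvap was taken out of the barrier list after its values were seen. The members and lists were chosen with earlier results of these data known.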

Additional observations from a re-analysis of the deposited data

Results flagged for a closer look

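In each group of 8 cultures, the lowest or highest culture of a member was set against the rest, and chance marks about 1 in 20 groups, of which 20 were read. Adgra2 in *APOE4* replicate 43 was 848 CPM, apart from the other cultures, with a group median of 966 and the next lowest culture at 928. Lrp6 in *APOE3* replicate 31 was 100.2 CPM, with a group median of 118 and the next lowest at 113.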

How the results depend on the processing

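Reck and Nkd1 were called in 7 of 8 other settings and in 16 of 16 fits that left out 1 library (edgeR adjusted p 0.00627 to 0.0289 for Reck and 0.00769 to 0.0356 for Nkd1). With the cell cycle score added as a term, 0 genes, 0 members and 0 pathway genes were called. That score also turned the log2 fold changes of Lef1 to 0.16, Apcdd1 to -0.10, Tspan12 to 0.012, Adgra2 to -0.0099, Lrp6 to 0.042 and Znrf3 to 0.053, none of them called, and correction for GC content and gene length turned Fzd4 to -0.010. With 1 library left out, Tspan12 ran from -0.046 to 0.0032 (without *APOE4* replicate 35). Pathway genes called numbered 2 with GC content and gene length corrected (Dvl1 and Lrp4 lost) and 7 with the DESeq2 Wald test (Ctnnb1, Porcn and Wnt11 gained), against 4. Leaving out 1 library gave 846 (without *APOE4* replicate 41) to 2127 genes, with 853 without *APOE3* replicate 30 and 952 without *APOE3* replicate 33, against 1597. It gave 2 to 3 members and 3 to 8 pathway genes (8 without *APOE3* replicate 31, and 3 in the 6 fits that lost Lrp4). Members called in females numbered 1 with no filter on low counts, 1 with DESeq2 and 1 with voom, and 0 to 2 with 1 library left out, namely Reck and Nkd1 without *APOE3* replicate 31 and Reck without *APOE3* replicate 32 or *APOE4* replicate 35. The cause of these moves was not tested. No paired analysis was possible because the genotypes share no replicate numbers. Counts per library were 50 to 112 for Axin2 and 27 to 122 for Wnt5b.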

Other observations

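The 5 tested genes outside the members whose levels were most like those of Axin2, by Pearson r of genotype-centred log2 CPM over 16 cultures, were Ddx54 (r = 0.852), Stk40 (0.835), Pcdhb22 (0.804), Aldoa (0.803) and Pbld1 (0.799). These cultures share depth and composition, so the values are a description. Among the members, r with Axin2 on the same scale ran from -0.526 for Adgra2 to 0.453 for Lef1, at the 4.64 and 93.1 percentiles of all tested genes. Apcdd1 was at -0.455, the 8.32 percentile. Of the 5 genes most like Axin2, 4 were lower with *APOE4* in edgeR, where 6.09% of all tested genes were. The exception was Pcdhb22 (log2 fold change -0.13, edgeR adjusted p = 0.379). The 5 were picked from these same data, and with the cell cycle covariate 0 of 12481 genes passed.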
